A study of Rattus norvegicus with 54 samples.

Results

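Transcripts of 9 complement components were followed through sham, untreated MI and cell sheet-treated rat hearts. They are the C1q chains C1qa, C1qb and C1qc, the C1 proteases C1r and C1s, the C1 inhibitor Serping1, and the convertase components C2, C3 and Cfb. The members were chosen by name, each symbol was found in the deposited count table of every library, and they are 9 of 40319 genes listed. Complement is a cascade of plasma and tissue proteins that tags dead cells and microbes. C1q recognizes antibody complexes and dying cells, C1r and C1s are the proteases carried with it, and C2 and factor B (Cfb) supply the catalytic parts of the enzymes that cleave C3. Most circulating complement comes from the liver, C1q comes mainly from macrophages, and injured myocardium is known to carry complement products.

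The libraries came from poly(A) RNA of the left ventricle of female athymic F344/NJcl-rnu/rnu rats, 8 weeks old, 1 week after surgery. All animals lack a thymus and hence most T cells, so the host immune response is incomplete in every group, controls included. Sham animals had no coronary ligation, MI animals had a complete proximal ligation of the left anterior descending artery, and MI + Cell Sheet animals had the same ligation with a bi-level sheet of human endothelial progenitor cells and smooth muscle cells laid on the epicardium. Each treatment had 6 animals, and each heart gave an infarct zone (anterior wall), a border zone (lateral wall) and a remote zone (septum), which made 9 groups of 6 and 54 libraries. In sham hearts the zone names mark position alone. In the labels the 6 libraries of each group are named technical replicates, and the study describes them as separate hearts, so the p-values measure the spread between these libraries. Counts on genes lay between 12699204 and 23397754 per library. The summed cardiomyocyte markers (Myh6, Tnnt2, Tnni3, Actn2, Ryr2 and Pln) reached 11390 to 44331 CPM (counts scaled by library size with TMM factors) in sham libraries, and the lowest value of all 54 was 89.2 CPM, in a border zone library of the cell sheet group.

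Sequence around the start of transcription is shown for 3 members, the C1q chains C1qa and C1qb, whose levels followed each other closely, and C3, whose levels had the widest fold range over the libraries. C1qc lies between C1qa and C1qb on rat chromosome 5 with no other protein-coding gene among them, and none lies between C1r and C1s on chromosome 4 and C2 and Cfb on chromosome 20. RefSeq promoter sequences of build GRCr8, from 250 bases before to 50 bases after the start, matched 4 of the 9 members. Capitals mark a match to GAGGAA (the core bound by PU.1, a macrophage factor) or TTGCNNAA (a C/EBP site), read on both strands. The C1qa window is at chr5:154419884-154420183, the C1qb window at chr5:154407778-154408077 and the C3 window at chr9:2201290-2201589, all on the minus strand.

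C1qa: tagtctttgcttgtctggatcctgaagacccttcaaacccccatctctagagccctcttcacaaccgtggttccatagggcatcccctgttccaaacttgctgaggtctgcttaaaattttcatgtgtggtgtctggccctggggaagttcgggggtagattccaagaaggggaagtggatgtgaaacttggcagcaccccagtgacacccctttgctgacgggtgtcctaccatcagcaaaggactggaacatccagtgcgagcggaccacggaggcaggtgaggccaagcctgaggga
C1qb: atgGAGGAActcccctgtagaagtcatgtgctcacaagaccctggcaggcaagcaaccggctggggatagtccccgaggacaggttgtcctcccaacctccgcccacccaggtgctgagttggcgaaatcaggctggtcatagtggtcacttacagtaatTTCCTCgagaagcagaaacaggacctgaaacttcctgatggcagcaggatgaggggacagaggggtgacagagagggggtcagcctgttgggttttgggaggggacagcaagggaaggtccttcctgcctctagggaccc
C3: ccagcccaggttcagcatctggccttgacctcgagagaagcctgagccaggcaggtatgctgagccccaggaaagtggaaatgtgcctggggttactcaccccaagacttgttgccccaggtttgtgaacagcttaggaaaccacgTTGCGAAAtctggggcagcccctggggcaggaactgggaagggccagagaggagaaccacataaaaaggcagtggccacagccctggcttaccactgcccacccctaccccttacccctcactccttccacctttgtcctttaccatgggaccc

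The GAGGAA core was found in 2 of the 4 windows (C1qb and C1r) and in 27.6% of 33469 RefSeq promoters of the same length. TTGCNNAA was found in 2 of the 4 (C1r and C3) and in 10.6% of all promoters. The letters GAAANNGAA, GGGANTTTC and TATAAA were not in these 4 windows and were in 9.71%, 1.15% and 14.2% of all promoters. The C1qa window held none of the searched letters, and the C1qb window held GAGGAA alone.

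Sham replicate 5 was unlike its group in each of its 3 zones. In the infarct zone C1qa was 737 CPM in this animal and 66.4 to 116 CPM in the others. C3 was 367 CPM against 6.30 to 18.4 CPM, and C2 was 510 CPM against 19.0 to 36.6 CPM. The 8 members other than Cfb were higher in this animal than in every other sham library of the same zone. All of them except C3 in the border zone were also above every MI library of that zone. The share of all genes that did so in this animal was not counted. Cfb was 91.8 CPM in its infarct zone, within the 34.8 to 93.2 CPM of the other sham animals. Its 8 macrophage markers (Cd68, Csf1r, Adgre1, Mrc1, Cd163, Lyz2, Fcgr3a and Marco) summed to 11187 CPM in the infarct zone against at most 583 CPM in the other sham animals, of which Lyz2 made up 10469 CPM, and Marco was at most 0.531 CPM in every library. Its 5 B cell markers summed to 16.5 CPM there against at most 2.06 CPM. The part of these cells in the values of sham replicate 5 was not tested, and the members' comparisons of MI and cell sheet hearts with sham within each zone are given with and without this animal.

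**Figure D1:**
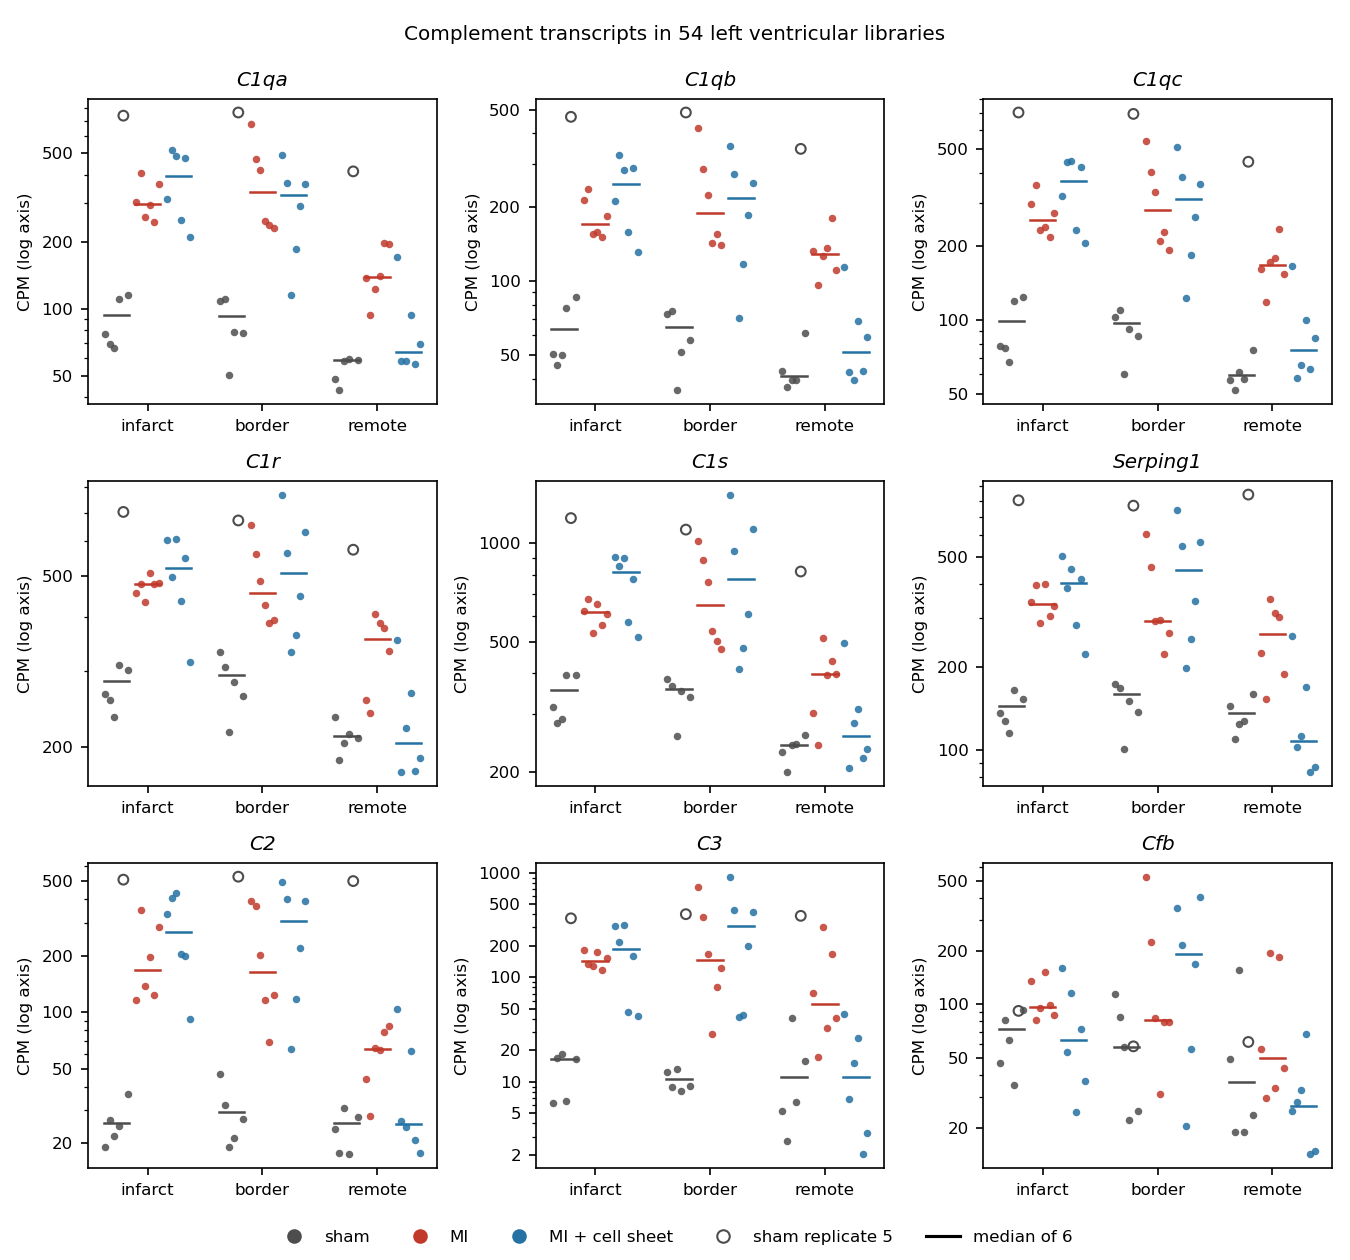
Level of each of the 9 complement transcripts in every library, as CPM with TMM factors on a log axis, by zone (x axis) and treatment (colour), 6 animals per group with the group median as a line. Open circles are sham replicate 5, which lies above the other sham animals in every panel but Cfb, where it lies among them.

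Untreated MI was first compared with sham, which asks how ligation alone changed complement transcripts in each zone. With all 6 sham animals, edgeR called 1 of 9 members in the infarct zone, where 49.9% of all genes tested were called. That member was Cfb, which rose from a mean of 68.4 ± 24.4 CPM (SD, n = 6) to 109 ± 28.8 CPM, a log2 fold change of 0.66 ± 0.25 (SE, adjusted p = 0.0458). None was called in border tissue (41.7% of all genes called) or remote tissue (25.8%), where edgeR gave 1 and 0 members with an unadjusted p under 0.05 and DESeq2 called 1 and 0. The members had a median log2 fold change of 0.49 (infarct), 0.81 (border) and 0.36 (remote), against −0.02, −0.02 and −0.04 for all genes. The Cfb call was lost when sham replicate 1, 2, 3 or 4 or MI replicate 1, 3, 4 or 5 was left out.

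Without sham replicate 5 nearly the whole group was higher after MI. All 9 members were called higher in the infarct zone, with 34.1% of all genes called higher, while 8 were called in border tissue (31.9%) and 8 in remote tissue (23.7%), Cfb being the exception in each. In the infarct zone the MI and sham libraries did not overlap for 8 of 9 members, with every MI library higher, which held for 23.4% of all genes. The same count was 8 for border tissue (22% of all genes) and 4 for remote tissue (13.4%). The median log2 fold change of the members was then 1.54, 1.82 and 1.37, against 0.04, 0.03 and −0.0023 for all genes. Sham replicate 5 was picked for its high levels of these members after seeing the data, and its removal lowers the sham group. The added calls, gaps and larger fold changes are therefore no separate support for a rise. All 7 macrophage markers tested were called higher in each zone in the same fits, against 4, 5 and 2 of 7 with all 6 sham animals. In bulk tissue a change in the number of cells of a type and a change in RNA per cell cannot be told apart, and the part of macrophage number in these differences was not tested.

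The C1q chains form the recognition part of C1. C1qb had a lowest, median and highest level of 45.6, 63.9 and 468 CPM in sham and of 151, 171 and 237 CPM in MI in the infarct zone. For border tissue the values were 35.8, 65.2 and 487 CPM in sham and 140, 190 and 421 CPM in MI, and in the remote zone 37.0, 41.1 and 346 CPM against 96.5, 129 and 180 CPM. In each zone every MI library lay above the other 5 sham libraries and below sham replicate 5. The log2 fold change of C1qb was 0.49 ± 0.56, 0.81 ± 0.62 and 0.45 ± 0.55 with all sham animals (infarct, border, remote; adjusted p = 0.481, 0.306 and 0.576). Without sham replicate 5 it was 1.57 ± 0.20, 1.96 ± 0.32 and 1.57 ± 0.16 (adjusted p = 6.8e-05, 0.000349 and 1.6e-05). C1qa and C1qc had values of 1.83 and 1.54 in the infarct, 2.16 and 1.82 in the border and 1.47 and 1.495 in the remote zone without this animal, all called and all without overlap.

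The C1 proteases and their inhibitor had smaller differences. C1r, which cleaves C1s, ranged from 235 to 702 CPM with a median of 284 CPM in sham and from 434 to 507 CPM with a median of 477 CPM in MI in the infarct zone. Its log2 fold change there was 0.44 ± 0.25 (adjusted p = 0.155), and 0.78 ± 0.10 (adjusted p = 8.9e-05) without sham replicate 5. C1s, the protease that cleaves C4 and C2, was at 0.34 ± 0.34 (adjusted p = 0.422) and 0.86 ± 0.13 (adjusted p = 0.000189). Serping1, a serpin that inactivates C1r and C1s, ranged from 115 to 802 CPM in sham (median 145 CPM) and from 288 to 400 CPM in MI (median 338 CPM). Its log2 fold change was 0.45 ± 0.46 (adjusted p = 0.433) and 1.31 ± 0.13 (adjusted p = 2.1e-05) without that animal. In the remote zone, again without it, C1r, C1s and Serping1 were at 0.67 ± 0.13, 0.71 ± 0.16 and 0.94 ± 0.19, all called.

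C3 had the largest log2 fold change of the 9 members in each zone once sham replicate 5 was left out. In the infarct zone C3, the central component whose cleavage all pathways share, had a lowest, median and highest level of 6.30, 16.7 and 367 CPM in sham and of 118, 142 and 185 CPM in MI. In the border zone MI libraries spread from 28.5 to 735 CPM (median 146 CPM) and in the remote zone from 17.4 to 302 CPM (median 55.7 CPM), while the other 5 sham animals lay between 8.19 and 13.2 CPM and between 2.70 and 40.9 CPM. So the 5 sham libraries and the MI libraries were apart in the infarct and border zones and overlapped in the remote zone. The log2 fold change was 1.02 ± 0.93, 1.73 ± 1.15 and 0.43 ± 1.11 with all sham animals (adjusted p = 0.374, 0.241 and 0.807). It was 3.52 ± 0.31, 4.61 ± 0.76 and 2.88 ± 0.79 without sham replicate 5 (adjusted p = 1.5e-05, 0.000359 and 0.0079).

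C2, which supplies the catalytic part of the classical and lectin C3 convertase, had a wide gap between MI and the other 5 sham animals in the infarcted wall. Its median was 25.6 CPM in sham and 168 CPM in MI for infarcted wall, 29.4 and 163 CPM for border tissue and 25.8 and 63.8 CPM for the septum. Without sham replicate 5 the log2 fold change was 2.98 ± 0.33, 2.87 ± 0.47 and 1.37 ± 0.25 (adjusted p = 3.4e-05, 0.000353 and 0.000481). With all sham animals it was 0.90 ± 0.84, 0.92 ± 0.87 and −0.80 ± 0.83 (adjusted p = 0.386, 0.411 and 0.503), so that its sign in the remote zone turned with that animal. The effect of MI on C2 was larger in the infarct than in the remote zone by 1.56 ± 0.40 on the log2 scale (adjusted p = 0.0113), from a test of the interaction in which each heart was a block. It was the 1 member of 9 called in that test, in which 28.9% of all genes were called. Between the border and remote zones the effect of MI differed for no member by edgeR or DESeq2, with 0% of all genes called and 1 member, C2 (1.35 ± 0.60), with an unadjusted p under 0.05.

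Cfb, the alternative pathway counterpart of C2, did not share the pattern of sham replicate 5. Its MI libraries lay between 81.4 and 152 CPM in the infarct zone, between 31.0 and 527 CPM in the border zone and between 29.5 and 195 CPM in the remote zone. The sham libraries lay between 34.8 and 93.2 CPM, between 22.2 and 114 CPM and between 18.8 and 156 CPM, so the groups overlapped in each zone. The log2 fold change without sham replicate 5 was 0.77 ± 0.26, 1.498 ± 0.70 and 0.77 ± 0.64 (adjusted p = 0.019, 0.0798 and 0.343). The difference between zones in the effect of MI was not called for Cfb.

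**Figure D2:**
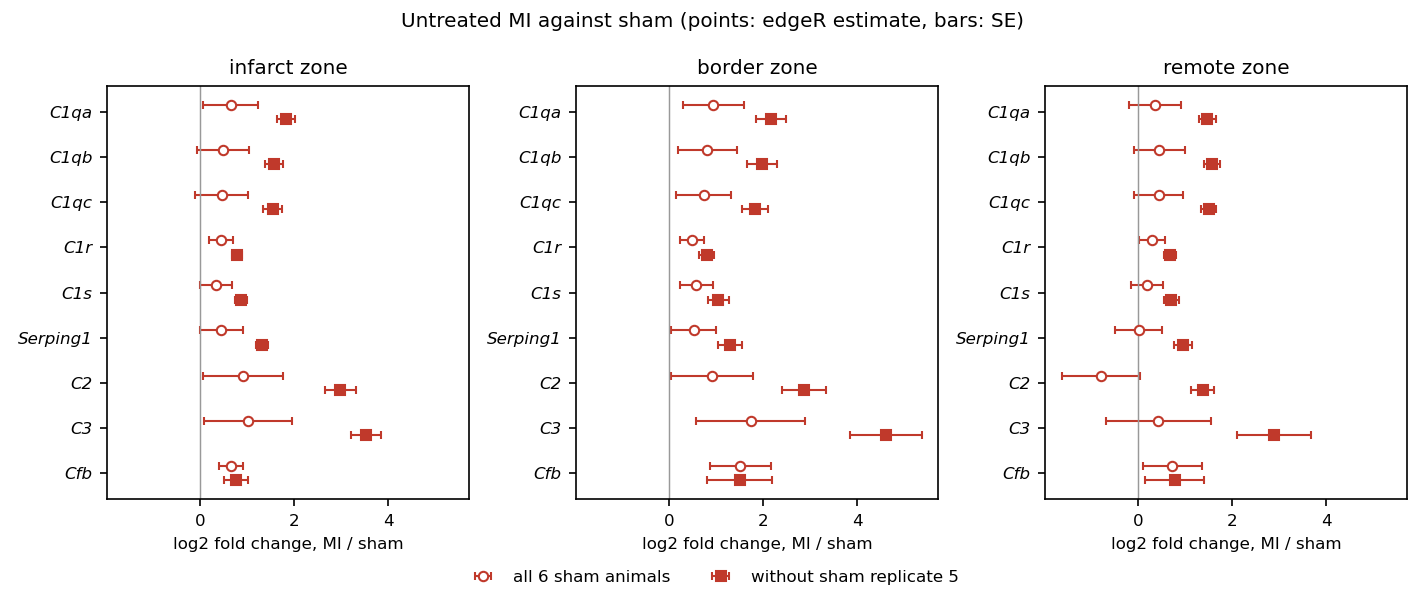
Log2 fold change of each member in untreated MI against sham (x axis) in each zone, as the edgeR estimate with its SE, with all 6 sham animals (open circles) and without sham replicate 5 (squares). Leaving out this animal moves C3 in the infarct zone from 1.02 to 3.52 and leaves Cfb near its place (0.66 and 0.77).

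Among 42 other genes of the complement pathway, 32 passed the filter on low counts in each zone and were tested. With all sham animals 21 were called in infarcted wall, 15 of them higher and 6 lower after MI. That is 65.6% of those tested, against 49.9% of all genes. The border zone had 16 (13 up and 3 down, 50% against 41.7% of all genes) and the remote zone 11 (10 up and 1 down, 34.4% against 25.8%). Without sham replicate 5 the counts were 28 of 33, 26 of 32 and 20 of 32. Of these 22, 22 and 18 were higher, where 34.1%, 31.9% and 23.7% of all genes were called higher. The values of pathway genes that follow are from the fits with all 6 sham animals. C6, a subunit of the membrane attack complex, had the largest rise among the pathway genes called in the infarct and border zones. Its log2 fold changes were 3.45 ± 0.58, 4.36 ± 0.75 and 2.44 ± 0.52 (infarct, border, remote). C6 had a median of 4.94 CPM in sham and 74.0 CPM in MI in the infarct zone, and there every MI library was above every sham library. The share of all genes for which that held is not given here. Factor D (Cfd), the protease that activates factor B, rose by 2.24 ± 0.38, 2.55 ± 0.44 and 1.64 ± 0.39.

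The anaphylatoxin receptor C3ar1 rose by 2.42 ± 0.36, 2.40 ± 0.32 and 1.59 ± 0.33 on the log2 scale in the infarct, border and remote zones. The C5a receptor C5ar1 rose by 1.85 ± 0.52 and 1.76 ± 0.49 in the infarct and border zones and had a value of 0.83 ± 0.48 (adjusted p = 0.224) in the remote zone. Its remote zone levels (lowest, median, highest) were 8.64, 11.3 and 66.2 CPM in sham, the highest in sham replicate 5. In MI they were 21.8, 39.2 and 48.7 CPM. In the remote zone the largest rise was of Vsig4, a macrophage receptor for C3 fragments, at 2.71 ± 0.70, followed by C6 and the collectin Colec11, a pattern recognition protein of the lectin pathway, at 1.88 ± 0.33. Vsig4 was a low gene, at most 3.04 CPM in MI and 1.31 CPM in sham there. Among the genes called, large falls were those of C4bpb, a chain of C4b-binding protein, by 2.03 ± 0.69 and 2.01 ± 0.61 in the infarct and border zones, of Vtn (vitronectin), which blocks the terminal complex, by 1.37 ± 0.47 and 1.58 ± 0.33, and of Masp1, a lectin pathway protease, by 1.11 ± 0.30 in the infarct zone. C1qbp, which binds C1q and is mainly a mitochondrial protein, fell by 0.66 ± 0.11 in the border and 0.38 ± 0.07 in the remote zone. C5 was at most 0.96 CPM in every library and was not tested. C4a and C4b are close paralogs whose reads can be split between them, so their values are uncertain. C4a rose by 1.38 ± 0.43 in the infarct zone (adjusted p = 0.0188), while C4b was at 0.30 ± 0.66 (adjusted p = 0.726). There C4b had a lowest, median and highest level of 24.9, 52.1 and 411 CPM in sham, the highest in sham replicate 5. In MI these levels were 83.9, 109 and 245 CPM.

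Cell sheet-treated hearts were then compared with untreated MI, which asks whether the sheet changed complement transcripts after the same ligation. In the infarct zone no member was called by edgeR or DESeq2 and none had an unadjusted p under 0.05, in a comparison where 0% of all genes were called. The log2 fold changes of the members lay between −0.49 ± 0.39 (Cfb) and 0.46 ± 0.38 (C2), and every group pair overlapped. In the border zone no member was called by either tool or had an unadjusted p under 0.05, although 18% of all genes were called. The values there lay between −0.31 ± 0.36 (C1qa) and 0.47 ± 0.84 (C3).

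The border zone libraries of the cell sheet group were widely spread. C3 had a lowest, median and highest level of 41.5, 309 and 919 CPM there, and Cfb of 20.4, 193 and 403 CPM. The lowest of both genes was replicate 3, while the highest C3 was in replicate 1 and the highest Cfb in replicate 6. The library of replicate 1 had a cardiomyocyte marker score (mean log2 CPM) of 3.62, against 9.46 to 10.7 in the other 5, and its macrophage score of 6.73 was the highest of the group. Replicate 3 had the lowest macrophage score (4.84), a mesothelial score of 2.02 against 4.75 to 5.85 in the other 5, and an adipocyte score of −0.90 against 1.61 to 6.78. The log2 fold change of C3 against MI was −0.12 without replicate 1, and that of C1r turned from 0.12 to −0.03. The part of the tissue make-up of these libraries in these values was not tested.

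In the remote zone 4 of 9 members were lower with the cell sheet than in untreated MI, where 6.79% of all genes were called lower and 17.1% in either direction. C1qb fell by 1.10 ± 0.26 on the log2 scale (adjusted p = 0.016), C1qc by 0.93 ± 0.25 (adjusted p = 0.0274), C3 by 2.67 ± 0.82 (adjusted p = 0.0412) and Serping1 by 0.92 ± 0.30 (adjusted p = 0.0488). The other 5 had negative values that did not pass the test, from −0.40 ± 0.23 (C1s, adjusted p = 0.243) to −1.59 ± 0.54 (Cfb, adjusted p = 0.0584). The median over the members was −0.92, against 0.006 for all genes.

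C1qb had a lowest, median and highest level of 39.4, 51.1 and 114 CPM in the cell sheet group and of 96.5, 129 and 180 CPM in MI in the remote zone. C3 was at 2.02, 11.1 and 44.9 CPM with the sheet and at 17.4, 55.7 and 302 CPM in MI. Serping1 was at 83.1, 107.8 and 258 CPM against 153, 264 and 351 CPM. In each case the group ranges overlapped through the cell sheet library of replicate 1, which held the highest level of all 3 genes in its group, and for C3 and Serping1 also through that of replicate 4. The highest C3 and Cfb levels in MI were in the same pair of animals, replicates 3 and 5, with 302 and 167 CPM of C3 and 195 and 186 CPM of Cfb.

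Leaving out cell sheet replicate 1 raised the number of members called lower in the remote zone to 9 of 9, where 20.8% of all genes were called lower. This replicate was picked for its high levels after seeing the data, and its removal lowers the cell sheet group. The added calls are therefore no separate support for a fall. In the check for libraries far from the rest of their group it was flagged for 0 members in this zone. C1qb and C1qc then lay below every MI library, which held for 7.86% of all genes. C3 was at −3.29 ± 0.80 (adjusted p = 0.00551), Cfb at −1.53 ± 0.57 (adjusted p = 0.0441), C2 at −1.01 ± 0.33 (adjusted p = 0.0255) and C1qa at −1.15 ± 0.20 (adjusted p = 0.00072). The macrophage marker score of replicate 1 was 5.43, against 3.42 to 4.31 in the other 5 cell sheet animals and 4.18 to 5.55 in MI. Of the 7 macrophage markers tested, 1 was lower with all animals and 6 without replicate 1. The summed markers ran from 312 to 2825 CPM with the sheet and from 674 to 2853 CPM in MI, and Marco was at 0 in all 12 libraries. Of 4 neutrophil markers tested 2 were lower with all animals (median log2 fold change −2.36), and of 6 fibroblast markers 1 was lower with all animals and 6 without replicate 1 (median −1.08). The fibroblast score was 10.2 in cell sheet replicate 1, 7.93 to 8.90 in the other 5 and 8.53 to 9.90 in MI. None of 5 mesothelial markers was called, and MI replicates 3 and 5, highest in C3 and Cfb, had mesothelial scores of 5.02 and 4.78 against 3.30 to 3.59 in the other MI animals. The part of these cell types in the difference was not tested.

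The number of members called changed with the libraries left out, while the log2 fold changes of the 4 called members kept their sign over the 12 fits that each left out 1 library. They ran from −1.38 to −0.98 for C1qb, −1.21 to −0.82 for C1qc, −3.29 to −1.99 for C3 and −1.22 to −0.81 for Serping1. The number fell to 1 member when MI replicate 3, 4 or 5 was left out, likewise for cell sheet replicates 2, 3, 5 and 6, and to 2 without MI replicate 1, while it rose to 7 without MI replicate 2 and was 3 without MI replicate 6 or cell sheet replicate 4. It was 7 with DESeq2 and 0 in a fit of all 9 groups together. The difference in the effect of the sheet between the border and remote zones was not called for any member by edgeR (DESeq2 called 1), and 0% of all genes passed. It was 1.29 ± 0.47 for Serping1, 1.04 ± 0.41 for C1qb, 0.95 ± 0.41 for C1qc, 0.68 ± 0.31 for C1r and 3.41 ± 1.51 for C3, the 5 members with an unadjusted p under 0.05 (adjusted p from 0.169 to 0.239). Between the border and infarct zones the effect of the sheet was not called different for any member by edgeR or DESeq2, none had an unadjusted p under 0.05, and 0% of all genes passed.

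**Figure D3:**
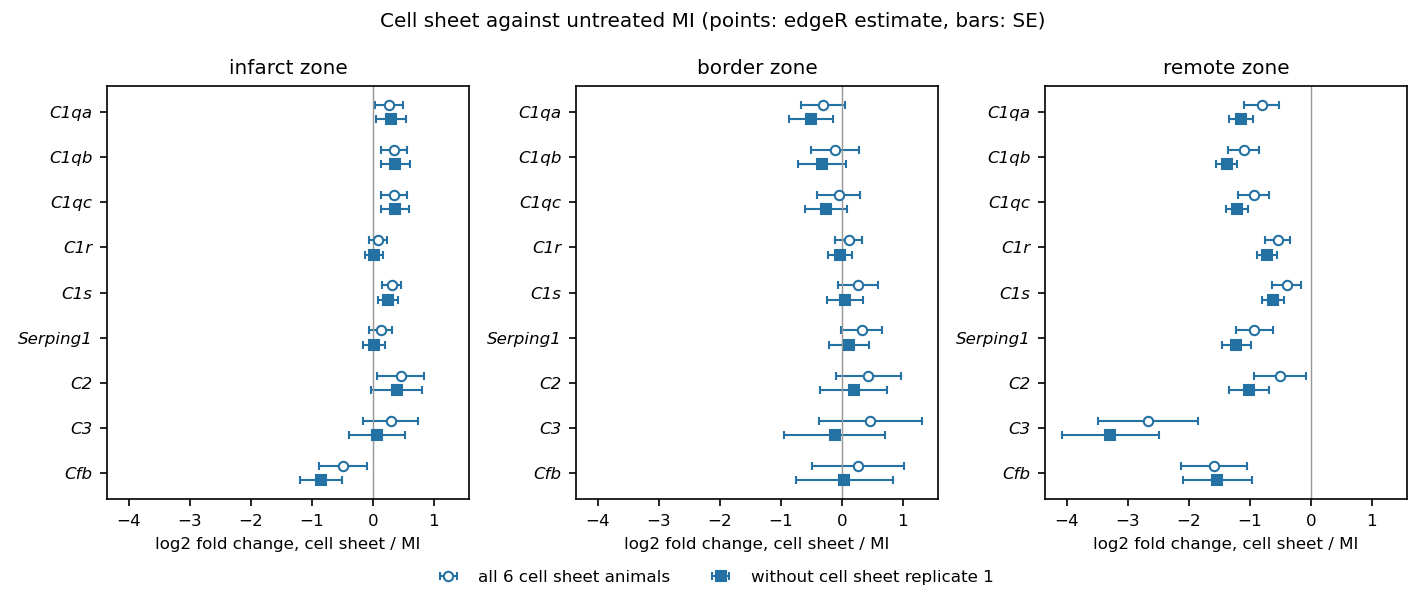
Log2 fold change of each member in cell sheet-treated against untreated MI hearts (x axis) in each zone, as the edgeR estimate with its SE, with all 6 cell sheet animals (open circles) and without cell sheet replicate 1 (squares). The 9 members lie on both sides of 0 in the infarct and border zones and all below 0 in the remote zone.

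Of the other pathway genes tested against untreated MI, none was called in the infarct zone (DESeq2 called none, and 1 had an unadjusted p under 0.05). In the border zone 1 of 33 was called, where 18% of all genes were called. It was Cd93, an endothelial receptor first described as a C1q receptor, which was higher by 0.55 ± 0.17. C4b had a median of 927 CPM with the sheet and 97.9 CPM in MI there, and its value of 2.32 ± 0.79 did not pass the test (adjusted p = 0.0613). In the remote zone 3 of 32 were called, all lower, where 6.79% of all genes were called lower and 17.1% in either direction. Vsig4 fell by 1.67 ± 0.52, Colec11 by 1.08 ± 0.24 and Colec12, a scavenger receptor with a collectin domain, by 0.83 ± 0.26. Without cell sheet replicate 1 the count was 20 of 32, all lower, where 20.8% of all genes were called lower. These included C3ar1 at −1.58 ± 0.29 and C5ar1 at −1.57 ± 0.22.

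Cell sheet-treated hearts were also set against sham. This comparison shares its sham animals with that of untreated MI. With all sham animals, 0 of 9 members were called in infarcted wall (57.9% of all genes called), 1 in border tissue (43.6%) and 0 in remote tissue (0.0066%). The member called was Cfb, with a log2 fold change of 1.74 ± 0.65 (adjusted p = 0.0453), and this call was lost when any of sham replicates 2, 3, 4 and 6 or cell sheet replicates 1, 2, 5 and 6 was left out. In the infarct zone 1 member had an unadjusted p under 0.05 and DESeq2 called none, and in the remote zone both counts were 0.

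Without sham replicate 5, 8 members were higher with the sheet than in sham in the infarct zone (36.4% of all genes called higher) and 8 in the border zone (32.9%), Cfb being the exception. Their libraries did not overlap with those of sham for 8 and 7 members, which held for 26.2% and 22.6% of all genes. As above, sham replicate 5 was picked for its high levels, so these calls and gaps are no separate support for a rise. C3 was at 3.81 ± 0.63 in the infarct and 5.04 ± 0.83 in the border zone (adjusted p = 0.00029 and 0.000348), C2 at 3.43 ± 0.39 and 3.26 ± 0.53, and C1qa at 2.08 ± 0.28 and 1.81 ± 0.35. In the remote zone edgeR called no member, 0.111% of all genes were called and 1 member, C1qa, had an unadjusted p under 0.05 (DESeq2 was not run without this animal). The values lay between −0.81 ± 0.59 (Cfb) and 0.87 ± 0.46 (C2). For the same zone the values of untreated MI against the same 5 sham animals lay between 0.67 ± 0.13 (C1r) and 2.88 ± 0.79 (C3).

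Of the other pathway genes, 24 of 33 were called against sham in infarcted wall (72.7%, against 57.9% of all genes), 18 up and 6 down. In the border zone 21 of 32 were called (65.6%, against 43.6%), 17 up and 4 down. Remote tissue had 0 of 30 called (0.0066% of all genes), where 2 had an unadjusted p under 0.05 and DESeq2 called none. Without sham replicate 5 the counts were 29 of 33 (22 higher), 28 of 33 (23 higher) and 0 of 30, where 36.4% and 32.9% of all genes were called higher in the first pair of zones and 0.111% were called in the septum. The values of pathway genes against sham that follow are from the fits with all 6 sham animals. C6 again rose most, by 4.26 ± 0.65 and 5.82 ± 0.98, with medians of 104 and 279 CPM with the sheet. Factor D rose by 2.60 ± 0.38 and 4.37 ± 0.81, and its border zone median was 357 CPM with the sheet and 18.1 CPM in sham. Factor D, also named adipsin, is a product of fat cells, and the score of 5 adipocyte markers (Adipoq, Plin1, Lep, Cidec and Fabp4) in border tissue ran from −0.90 to 6.78 with the sheet and from −0.79 to 0.16 in sham. The summed level of these markers, most of it Fabp4 in sham, ran from 294 to 1087 CPM with the sheet and from 225 to 1344 CPM in sham. Fabp4, which endothelial cells also express, was the 1 adipocyte marker that passed the filter against sham, and its log2 fold change was −1.02, a fall that passed the test. Against untreated MI 2 of 4 adipocyte markers tested were higher with the sheet there. The part of fat tissue in the values of factor D was not tested. Factor I (Cfi), the protease that degrades C3b and C4b, rose by 3.59 ± 0.80 in the infarct zone from levels of at most 0.62 CPM in sham. C4b rose by 3.13 ± 0.98 in the border zone. Among the genes called, the largest falls were of C4bpb (2.62 ± 0.65), Vtn (1.40 ± 0.38) and C1qbp (1.13 ± 0.16) in the infarct zone and of Masp1 (1.21 ± 0.30), Vtn (1.10 ± 0.24) and C1qbp (0.98 ± 0.14) in the border zone, all as decreases on the log2 scale. C4bpb was a low gene, at most 3.45 CPM in sham and 0.70 CPM with the sheet in the infarct zone. Colec11 had values of −1.55 in the infarct and −1.29 in the border zone that did not pass the test (adjusted p = 0.0625 and 0.129).

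Zones of the same hearts were compared with the animal as a block, which removes the level of each animal, sham replicate 5 included. In sham hearts 5 of 9 members were higher in the anterior wall than in the septum (32.4% of all genes called in either direction). The same 5 were higher in the lateral wall (25.7% in either direction). They were C1qa (0.72 ± 0.09 and 0.68 ± 0.15 on the log2 scale), C1qb (0.47 ± 0.08 and 0.42 ± 0.13), C1qc (0.61 ± 0.09 and 0.58 ± 0.12), C1r (0.37 ± 0.07 and 0.38 ± 0.08) and C1s (0.52 ± 0.07 and 0.51 ± 0.09). The anterior wall was higher than the septum in 6 of 6 sham animals for each of these 5 genes, and the share of all genes that did so was not counted. The values of C2, C3, Cfb and Serping1 did not pass the test and lay between −0.04 ± 0.30 and 0.66 ± 0.32. None of the 9 was called in either sham contrast without the animal as a block. Of 7 macrophage markers 5 and 4 were higher in the anterior and lateral walls of sham hearts than in the septum, of 6 fibroblast markers 4 and 2 were higher, and of 6 cardiomyocyte markers 3 were lower and 1 higher in each. Their part in the zone differences was not tested.

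In untreated MI hearts 5 members were higher in the infarct than in the remote zone, where 36.4% of all genes were called in either direction. C2 was higher by 1.67 ± 0.34 (adjusted p = 0.0108) and C1qa by 1.10 ± 0.20 (adjusted p = 0.00938). For C1qa, C1r, C1s and C2 every infarct zone library was above every remote zone library, and the share of all genes without overlap between zones was not counted. In this contrast 5 of 7 macrophage markers and 4 of 6 fibroblast markers were higher and 5 of 6 cardiomyocyte markers lower, and their part in it was not tested. The count of members was 3 without MI replicate 1 and 2 without MI replicate 4 or 6. Between the border and remote zones no member was called and 0% of all genes passed, while 6 had an unadjusted p under 0.05, DESeq2 called 5, and edgeR without the animal as a block called 6. Values there lay between 0.44 ± 0.31 (Serping1) and 1.59 ± 0.54 (C2).

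In cell sheet-treated hearts 8 of 9 members were higher in the infarct than in the remote zone (62.8% of all genes called in either direction). In the border zone 9 of 9 were higher than in the remote zone (56.4% in either direction). C3 was higher by 3.85 ± 0.73 and 4.51 ± 1.13 (adjusted p = 0.00439 and 0.0124), C2 by 2.86 ± 0.42 and 2.77 ± 0.54, and the C1q chains by 1.97 to 2.20 and by 1.73 to 1.86. The 8 members other than Cfb were higher in the border than in the remote zone of 6 of 6 hearts, and Cfb in 4 of 6. How many of all genes were higher in 6 of 6 hearts was not counted. For Cfb the difference was 1.36 ± 0.53 in the infarct zone (adjusted p = 0.0561) and 2.56 ± 0.90 in the border zone (adjusted p = 0.0433). The macrophage markers were all 7 higher in both contrasts, 6 and 3 of 6 cardiomyocyte markers were lower, and their part in the zone differences was not tested.

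**Figure D4:**
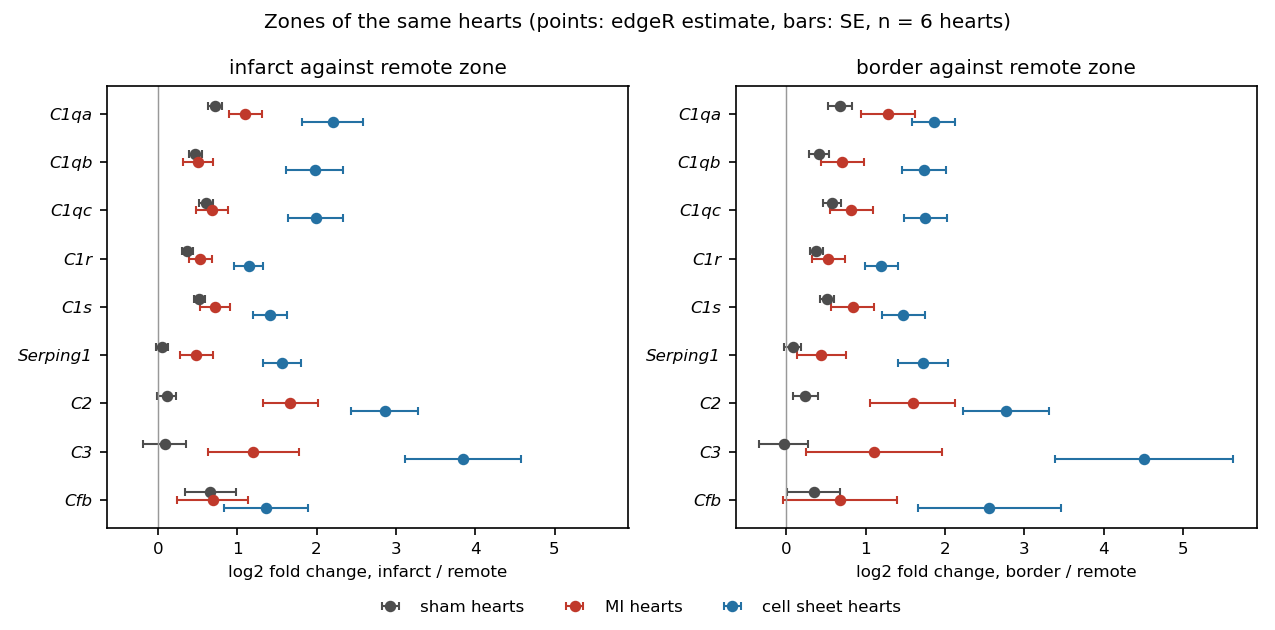
Log2 fold change of each member between zones of the same hearts (x axis), infarct against remote and border against remote, as the edgeR estimate with its SE for sham, untreated MI and cell sheet-treated hearts (n = 6 hearts each). C3 is near 0 in sham hearts (0.08 and −0.04) and at 3.85 and 4.51 in cell sheet-treated hearts.

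The members also varied together within groups. After each group mean was subtracted, Pearson's r across the 54 libraries was 0.98 for C1qa and C1qb, 0.99 for C1qb and C1qc, 0.98 for C1r and C1s and 0.97 for C1r and Serping1, and Cfb had r between 0.41 and 0.69 with the other 8. These points share animals, since each heart gave 3 libraries, and sham replicate 5 stretches them. Without its 3 libraries (51 left) the C1q pairs lay between 0.945 and 0.984, C1r and C1s were at 0.95, and Cfb lay between 0.56 and 0.85 with the others, highest with C3. The neighbours C2 and Cfb were at 0.48 and 0.65.

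The score of the 8 macrophage markers went with the members in a like order. Its r with each member other than Cfb lay between 0.81 (C3) and 0.96 (C2), and between 0.62 (C3) and 0.91 (C2) without sham replicate 5. Cfb had r of 0.36 and 0.43 with that score. It had r of 0.78 and 0.84 with the score of 5 mesothelial markers (Msln, Upk3b, Wt1, Krt19 and Lrrn4), genes of the cells that line the heart surface. C3 had r of 0.36 with the mesothelial score over all libraries and 0.75 without sham replicate 5. The members other than Cfb and C3 had r with this score between 0.079 (C1qc) and 0.246 (C1r). Without that animal their r lay between 0.517 (C1qb) and 0.693 (C2). The B cell score had r between 0.727 (C3) and 0.835 (C2) with the members other than Cfb. Without that animal these values lay between 0.432 (C3) and 0.569 (C2). In the infarct zone the summed mesothelial markers ran from 46.1 to 149 CPM in sham, from 173 to 286 CPM in MI and from 74.6 to 552 CPM with the cell sheet. How much surface tissue each library held was not measured.

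**Figure D5:**
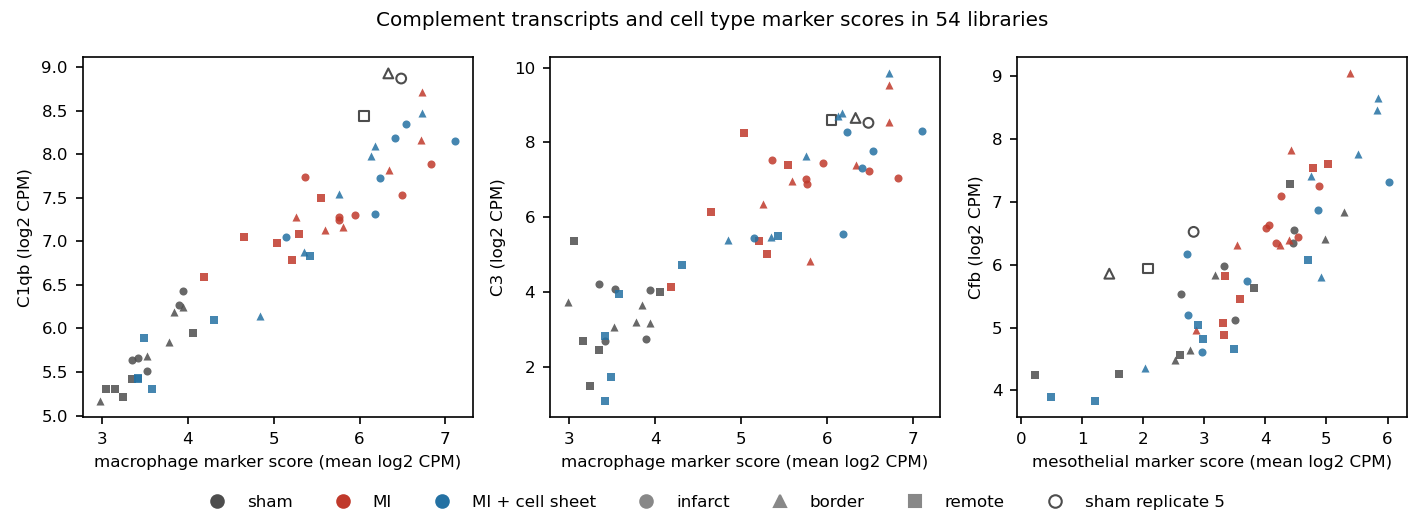
C1qb and C3 against the macrophage marker score and Cfb against the mesothelial marker score in all 54 libraries (axes in log2 CPM, score as the mean over the list), coloured by treatment and shaped by zone. Open symbols are sham replicate 5, which lies at macrophage scores of 6.05 to 6.49 among the MI and cell sheet libraries.

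Among 13282 other genes with a mean log2 CPM of at least 1, the 3 whose levels were most like each member within groups were found for all 54 libraries and again without sham replicate 5. For C1qa they were Pnp (r = 0.98), Ptpn18 and Cd4, and the same 3 genes came first without that animal. For C1qb they were Pla2g2d, Pnp and Tnfaip2, and for C1qc Pla2g2d, Pnp and Naaa, while Ccl6, Clec10a and Gda, and Clec10a, Gda and Pla2g2d, came first without it. C1r went with Mnda, Clec10a and Cd4 (Sulf1, Colec12 and Tbc1d2b without the animal), C1s with Clec10a, Vcam1 and Mnda (Emilin2, Gda and Clec10a), and Serping1 with Mnda, Pla2g2d and Clec10a (Gda, Xdh and Tf). C2 went with Tifa, Ctsz and Cd44 (Igfbp4, Rarres1 and Siglec1). C3 went with Plac8 (r = 0.92), C4b and Vcam1, and with Plac8, C4b and Wfdc21 without the animal. Cfb went with Cmahp (r = 0.87), Dhrs9 and the mesothelial marker Lrrn4, and the same 3 genes came first without it.

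The C1q chains were not in the macrophage list, so their level could be set against it. The score weighs its markers equally, and Marco, low in every library, is among them, so small shifts of Marco can move it. The mean log2 CPM of the C1q chains minus the macrophage score had a mean of 2.67 ± 0.15 (SD, n = 6) in the infarct zone of sham hearts, 1.91 ± 0.43 in MI and 1.94 ± 0.35 with the cell sheet. In the remote zone the same difference was 2.37 ± 0.26, 2.19 ± 0.25 and 2.22 ± 0.29. The sham values ran from 2.43 to 2.81 in the anterior wall, sham replicate 5 included, and overlapped with those of MI, from 1.52 to 2.70, while those of the cell sheet group, from 1.52 to 2.33, were all below sham. In border tissue the means were 2.67 ± 0.19, 2.05 ± 0.26 and 2.07 ± 0.16. Sham ran there from 2.41 to 2.98, above the cell sheet range of 1.80 to 2.22 and overlapping with the 1.81 to 2.42 of MI by less than 0.01. In the septum all 3 ranges overlapped. These differences were not tested.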

How the data were processed

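Poly(A) RNA of 54 left ventricular libraries from 18 rats (3 treatments, 3 zones, 6 animals per treatment) was analysed. The authors aligned trimmed reads with STAR to mRatBN7.2 and deposited whole-number counts per gene, not normalized. The counter and strand setting are not given in the sources used here, and without strand a gene and an overlapping antisense gene cannot be told apart. The submitters' processing notes also name DESeq2. The 5 summary lines (17.0% to 42.8% of counts) were left out. Counts on genes ran from 12699204 to 23397754 per library, and of 135 pairs within groups none held identical values.

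Groups and replicate numbers were taken from the labels. In R 4.3.3, edgeR 4.0.16 (TMM, filterByExpr with a minimum count of 10, quasi-likelihood F test, Benjamini-Hochberg adjusted p under 0.05, called) was fitted to the 12 libraries of each comparison of treatments. Zone contrasts and interactions had the animal as a block. The SE is the log2 fold change divided by the square root of F. Levels are CPM with TMM factors over 54 libraries, and log2 CPM has an offset of 0.1. A comparison of treatments and an interaction were also run on simulated counts with known changes. Those counts held no animal apart from its group and no shared hearts, and the outcome is not given here. DESeq2 1.42.0, other filters, library sizes without TMM factors, a replicate block, a fit of all 9 groups and leaving out each replicate were tried as alternatives. The correlations without sham replicate 5 were added after seeing the data. The fits without sham replicate 5 and without cell sheet replicate 1 were likewise picked, after seeing the data, to be given in full.

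Libraries of different treatments with the same number did not deviate together (1 or 2 of 6 pairs with r over 0.1 in each comparison), so those numbers do not pair them. Zones of the same heart share the animal by the description of the study, and in sham hearts all 6 pairs had r over 0.1. In MI hearts 4 of 6 pairs (infarct and remote) and 2 of 6 (border and remote) had r over 0.1. In cell sheet hearts these counts were 3 and 4. In MI and cell sheet hearts the block thus rests mainly on that description. Named genes were the 9 members, up to 3 of the largest rises and falls among 42 other pathway genes per comparison of treatments, 6 pathway genes (C4a, C4b, C5, Cfd, C3ar1 and C5ar1) and the 3 nearest genes of each member. The members and lists were chosen with earlier results of these data known. Human transcripts and protein sequences were not analysed here, and some items are not reported here.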

Additional observations from a re-analysis of the deposited data

Results flagged for a closer look

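Of 81 groups of 6 libraries (9 members in 9 groups), 22 had 1 library far from the other 5. Chance gives about 1 group in 20 for independent groups, which these are not. The zones share animals and the members varied together, so the 22 are not separate events. The share of all genes flagged in this way was not computed. All 22 were of sham replicate 5. Its levels in the infarct, border and remote zones were 737, 762 and 414 CPM for C1qa, 468, 487 and 346 CPM for C1qb, and 706, 696 and 444 CPM for C1qc. C1s was at 1193, 1100 and 819 CPM, C2 at 510, 529 and 502 CPM, and Serping1 at 802, 767 and 841 CPM. C1r stood apart in the infarct (702 CPM) and remote zones (574 CPM) and C3 in the infarct (367 CPM) and border zones (402 CPM). Cfb stood apart in no zone. The 3 libraries come from the same animal. Its macrophage score ran from 6.05 in the remote to 6.49 in the infarct zone, while Serping1 was highest in the remote zone. C1qa and C2 were highest in the border zone. The part of macrophages in these values was not tested.

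The effect of MI on C2 differed between the infarct and remote zones by 1.56 on the log2 scale (edgeR, adjusted p = 0.0113).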

How the results depend on the processing

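Over 1974 single-gene results under alternatives, 1749 kept their direction and side of the threshold, 91 newly passed it, 87 lost it and 47 changed sign, none of these among the 39 called results. For the causes of changes between settings, the cause was not tested. Members called with DESeq2 were 1 in MI against sham, border zone, 7 in cell sheet against MI, remote zone, 5 in border against remote zone of MI hearts, and 1 in the difference of the sheet effect between border and remote zones. Without a filter the count fell to 0 in MI against sham, infarct zone, and in cell sheet against sham, border zone. Without TMM factors it was 2 in cell sheet against MI, remote zone, and 1 in cell sheet against sham, infarct zone. In the fit of all 9 groups it was 0, 1, 0 and 2 for MI against sham, infarct and border, cell sheet against MI, remote, and cell sheet against sham, border. With a replicate block, members called were 2, 1 and 4 in MI against sham (infarct, border, remote), 0 in cell sheet against MI, remote, and 5 in cell sheet against sham, infarct. Without the replicate block, they were 0 in both sham zone contrasts, 6 in border against remote zone of MI hearts, and 0 in the difference of the MI effect between infarct and remote zones. Other pathway genes in cell sheet against MI were 5, 2 and 0 in the border zone and 5, 1 and 0 in the remote zone with DESeq2, without TMM factors and with the replicate block.

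Leaving out each replicate gave 0 to 9, 0 to 8 and 0 to 8 members called in MI against sham (infarct, border, remote), 1 to 9 in cell sheet against MI, remote, 0 to 8 and 0 to 8 in cell sheet against sham (infarct, border), 2 to 6 in infarct against remote zone of MI hearts, and 1 to 2 in the difference of the MI effect. The highest counts against sham were without sham replicate 5. The count was also 1 in MI against sham, border, without MI replicate 4, 1 in cell sheet against sham, infarct, without cell sheet replicate 6, and 2 in the difference of the MI effect without MI replicate 3. Other pathway genes ran from 14 to 26 and 10 to 20 in MI against sham (border, remote) and from 0 to 7 and 1 to 20 in cell sheet against MI (border, remote), highest without sham replicate 5 and without cell sheet replicate 3 and 1.

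Signs that changed were all of values that did not pass the test. With the replicate block C2 was at 0.70 in MI against sham, remote, C3 at −0.040 in cell sheet against MI, infarct, Cfb at −0.027 in cell sheet against sham, infarct, and C1qa, C1qc and C2 at 0.13, 0.070 and 0.065 in cell sheet against sham, remote. Without the block C3 was at −0.11 and Serping1 at −0.019 in infarct against remote sham zones and Serping1 at −0.022 in border against remote. C3 was at 0.15 with DESeq2 in the last contrast, and C1qc at 0.021 without TMM factors in cell sheet against MI, border. Leaving out replicates, values in cell sheet against sham, remote, ran from −0.81 to 0.67 (C1qa), −0.95 to 0.48 (C1qb), −0.80 to 0.57 (C1qc), −0.44 to 0.13 (C1r), −0.45 to 0.31 (C1s), −1.83 to 0.87 (C2), −2.89 to 0.23 (C3) and −1.23 to 0.027 (Serping1). In cell sheet against MI, border, they ran from −0.32 to 0.15 (C1qb), −0.26 to 0.16 (C1qc), −0.027 to 0.22 (C1r), −0.12 to 1.16 (C3) and −0.044 to 1.03 (Cfb). In MI against sham, remote, they ran from −1.02 to 1.37 (C2), −0.25 to 2.88 (C3) and −0.15 to 0.94 (Serping1), and in cell sheet against sham, infarct, from −0.15 to 0.38 (Cfb). In sham zones they ran from −0.24 to 0.40 (C3) and −0.015 to 0.080 (Serping1) for infarct against remote and from −0.25 to 0.33 (C3), −0.0072 to 0.72 (Cfb) and −0.021 to 0.15 (Serping1) for border against remote.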
